A study of Mus musculus with 12 samples.

Results

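Homeostatic microglia genes are transcripts that microglia, the resident immune cells of brain and spinal cord, carry at high level when undisturbed and that are used as their markers. The 9 described here are P2ry12, Tmem119, Cx3cr1, Sall1, Siglech, Gpr34, Olfml3, P2ry13 and Selplg. Their identifiers are ENSMUSG00000036353 (P2ry12), ENSMUSG00000054675 (Tmem119), ENSMUSG00000052336 (Cx3cr1), ENSMUSG00000031665 (Sall1), ENSMUSG00000051504 (Siglech), ENSMUSG00000040229 (Gpr34), ENSMUSG00000027848 (Olfml3), ENSMUSG00000036362 (P2ry13) and ENSMUSG00000048163 (Selplg). They were taken by symbol from the deposited tables of bulk RNA sequencing, which hold 57180 genes, and each symbol matched 1 row. All 9 passed the filter on low counts, which left 17820 genes for testing. The tissue was the injured spinal cord of female C57BL/6J wild type mice, taken at T9-T10 with margins of about 0.5 cm on either side, 7 days after a clip-compression injury. In the group SCI7 the injury was the only operation, in OVX2_SCI7 the ovaries had been removed 2 weeks before the injury, and in OVX8_SCI7 they had been removed 8 weeks before it. Each group has 4 libraries, labelled as biological replicates, and 1 batch label covers all 12. The labels give every mouse an age of 8 weeks without naming the step at which it applies. It cannot be the age at injury in OVX8_SCI7, where the ovaries had been removed 8 weeks earlier. Age at injury may therefore differ between the groups, and such a difference cannot be told apart from ovariectomy. No uninjured or sham-operated group is among the samples analysed here, so each value is a level in injured cord.

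Microglia sense their surroundings through surface receptors, and several of these genes encode them. P2ry12 and P2ry13 are receptors for ADP released by damaged cells, and P2ry12 directs microglial processes towards a wound. Gpr34 is a receptor for lysophosphatidylserine, and Cx3cr1 is the receptor for the neuronal chemokine fractalkine. Selplg is the selectin ligand PSGL-1, which other leukocytes carry as well. Tmem119 is a membrane protein used to tell microglia from macrophages that enter from blood, Siglech is a sialic acid-binding lectin that plasmacytoid dendritic cells carry too, Olfml3 is a secreted glycoprotein, and Sall1 is a transcription factor that keeps microglial identity. In lesions these genes are commonly lowered as microglia turn to phagocytosis.

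The libraries held 18222729 to 31781695 counts each. The lowest count of any of the 9 genes in a library was 131, for Siglech, far above the floor of 3 counts, which corresponds to 0.0944 to 0.165 CPM, the count scaled to library size. Markers of the tissue were present throughout: 6 oligodendrocyte markers summed to 10646 to 29948 TPM, a level scaled to transcript length and library size, 6 astrocyte markers to 2881 to 7492 and 6 neuronal markers to 467 to 3017. The mitochondrial share of a library was 7.63 ± 1.80% (SD, n = 4) for SCI7, while OVX2_SCI7 averaged 4.17 ± 2.80% and OVX8_SCI7 2.79 ± 0.515%. Replicate 1 of OVX2_SCI7, at 8.33%, lay among the SCI7 libraries, and the other OVX2_SCI7 libraries had 2.36 to 3.13%. A trend with base composition also separated the libraries. Over 15074 protein-coding genes, the Spearman correlation between transcript GC content and a library's deviation from the 12-library mean was -0.80 to -0.48 in SCI7, -0.41 in OVX2_SCI7 replicate 1, 0.37 to 0.51 in the other OVX2_SCI7 libraries and 0.15 to 0.83 in OVX8_SCI7. These correlations are across genes, which are not independent replicates, and are given as descriptions.

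The 9 genes themselves span much of this range of composition, from Gpr34 (37.1% G and C in its longest coding transcript) and P2ry12 (38.6%) to Selplg (58.6%) and Tmem119 (59.1%), with P2ry13 at 44.7%, Siglech at 45.5%, Cx3cr1 at 50.3%, Sall1 at 51.6% and Olfml3 at 52.4%. The middle 120 bases of the coding sequence are printed 5′ to 3′ for 6 surface proteins of low, intermediate and high GC content. Siglech is not among them. Each G and C is in capitals. The sequences are from GRCm38 with the GENCODE M21 models, and each lies within 1 exon. They are at chrX:13639736-13639855 (plus strand) for Gpr34, chr3:59217673-59217792 (minus) for P2ry12, chr3:59209791-59209910 (minus) for P2ry13, chr9:120051744-120051863 (minus) for Cx3cr1, chr5:113819559-113819678 (minus) for Selplg and chr5:113795259-113795378 (minus) for Tmem119. The 120 bases hold 48 G or C in Gpr34, 49 in P2ry12, 63 in P2ry13, 67 in Cx3cr1, 74 in Selplg and 73 in Tmem119. These stretches do not match the transcript values closely. That of P2ry13 has 52.5% G and C against 44.7% in the transcript, and that of Cx3cr1 55.8% against 50.3%. The stretch of Selplg (61.7%) is richer than that of Tmem119 (60.8%), the reverse of their transcripts.
Gpr34: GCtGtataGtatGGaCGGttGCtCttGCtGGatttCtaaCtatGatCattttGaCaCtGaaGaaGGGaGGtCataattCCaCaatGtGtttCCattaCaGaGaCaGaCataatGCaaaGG
P2ry12: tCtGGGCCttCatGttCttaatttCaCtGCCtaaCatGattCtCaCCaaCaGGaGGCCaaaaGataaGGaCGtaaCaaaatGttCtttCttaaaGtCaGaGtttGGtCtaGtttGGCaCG
P2ry13: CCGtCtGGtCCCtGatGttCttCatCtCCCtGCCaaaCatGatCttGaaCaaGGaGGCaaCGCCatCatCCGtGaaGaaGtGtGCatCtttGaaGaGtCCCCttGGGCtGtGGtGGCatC
Cx3cr1: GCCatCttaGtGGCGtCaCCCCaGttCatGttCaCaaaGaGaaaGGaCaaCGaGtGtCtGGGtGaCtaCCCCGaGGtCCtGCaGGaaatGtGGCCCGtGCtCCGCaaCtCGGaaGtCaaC
Selplg: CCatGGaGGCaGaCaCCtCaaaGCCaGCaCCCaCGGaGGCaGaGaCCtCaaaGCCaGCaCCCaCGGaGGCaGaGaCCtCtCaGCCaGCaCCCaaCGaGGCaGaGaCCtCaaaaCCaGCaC
Tmem119: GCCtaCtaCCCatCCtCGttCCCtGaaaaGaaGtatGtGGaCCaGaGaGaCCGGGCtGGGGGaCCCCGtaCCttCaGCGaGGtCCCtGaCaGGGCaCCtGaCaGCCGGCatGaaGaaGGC

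In the lesions of mice ovariectomized 8 weeks before injury, the 9 genes did not move as a block against injury alone. P2ry12, Gpr34 and P2ry13 fell, Tmem119 and Selplg rose, and the other 4 genes did not pass the test. That is 5 of 9 called by edgeR's quasi-likelihood test at a Benjamini-Hochberg adjusted p of 0.05, where 27.5% of all tested genes were called, 11.9% as higher and 15.6% as lower. The median log2 fold change was 0.02 over the 9 genes and 0.01 over all genes tested. In whole tissue, fewer cells of a type and less RNA per cell cannot be told apart.

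Of the 4 G protein-coupled receptors in the set, P2ry12, Gpr34 and P2ry13 fell and Cx3cr1, described further on, did not. P2ry12 stood at 99.1, 71.0, 67.6 and 54.6 CPM in the SCI7 libraries and at 31.7, 28.0, 35.6 and 37.2 CPM in those of OVX8_SCI7. Every OVX8_SCI7 library lay below every SCI7 library, and the mean level was 2.21-fold lower (log2 fold change -1.14, SE 0.32, edgeR adjusted p = 0.0251). Gpr34 had 81.3, 65.6, 43.0 and 56.4 CPM against 40.5, 25.5, 32.9 and 38.1 CPM, again without overlap, though the lowest SCI7 and the highest OVX8_SCI7 library lay close together. Its log2 fold change was -0.85 (SE 0.28, edgeR adjusted p = 0.0413). P2ry13, the close relative of P2ry12, fell less, by 0.46 on the log2 scale (SE 0.16, edgeR adjusted p = 0.0479). Its levels of 41.8, 32.9, 27.2 and 34.9 CPM in SCI7 and 27.3, 21.2, 26.2 and 24.6 CPM in OVX8_SCI7 overlapped at 1 library of each group.

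Tmem119 and Selplg, the 2 genes that rose, encode membrane proteins of other kinds. Tmem119 had 47.0, 42.6, 30.3 and 49.4 CPM in SCI7 and 98.3, 90.6, 87.8 and 79.5 CPM in OVX8_SCI7. The groups were well apart, with a 2.10-fold higher mean (log2 fold change 1.07, SE 0.30, edgeR adjusted p = 0.0241). Selplg had 56.6, 47.2, 36.3 and 57.0 CPM against 107.1, 123.0, 125.5 and 103.1 CPM, and was 2.33-fold higher (log2 fold change 1.22, SE 0.19, edgeR adjusted p = 0.0143). Its lowest OVX8_SCI7 library was well above its highest SCI7 library, and its adjusted p was the smallest of the 9 genes.

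Cx3cr1 and Olfml3 had higher levels in each OVX8_SCI7 library than in any SCI7 library, but did not pass the test. Cx3cr1 had 229.0, 192.9, 144.9 and 207.5 CPM in SCI7 and 256.4, 241.2, 285.2 and 270.7 CPM in OVX8_SCI7 (log2 fold change 0.44, SE 0.17, edgeR adjusted p = 0.0644). For Olfml3 the SCI7 libraries had 164.1, 152.0, 65.9 and 165.3 CPM, of which replicate 3 stood apart, and the OVX8_SCI7 libraries had 205.4, 189.0, 197.2 and 224.4 CPM (log2 fold change 0.58, SE 0.31, edgeR adjusted p = 0.176). With these 2 genes, CPM ranges did not overlap for 4 genes that were higher and 2 that were lower. Over all tested genes, ranges were apart for 39.1%, 19.6% in each direction.

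Sall1, the transcription factor of the set, and Siglech had similar means in all 3 groups. Sall1 averaged 58.4 ± 4.10 CPM in SCI7, 55.9 ± 19.1 in OVX2_SCI7 and 59.3 ± 10.4 in OVX8_SCI7 (SD, n = 4 each), and Siglech 15.8 ± 4.59, 15.6 ± 9.39 and 14.4 ± 1.90 CPM. The OVX8_SCI7 difference from SCI7 on the log2 scale was 0.02 (SE 0.22) for Sall1 and -0.13 (SE 0.38) for Siglech, with edgeR adjusted p of 0.949 and 0.816. Within OVX2_SCI7 both genes split the same way. Replicates 1 and 2 had 67.6 and 75.7 CPM of Sall1 and 26.0 and 21.1 CPM of Siglech, and replicates 3 and 4 had 34.3 and 46.1 CPM of Sall1 and 7.0 and 8.4 CPM of Siglech.

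**Figure D1:**
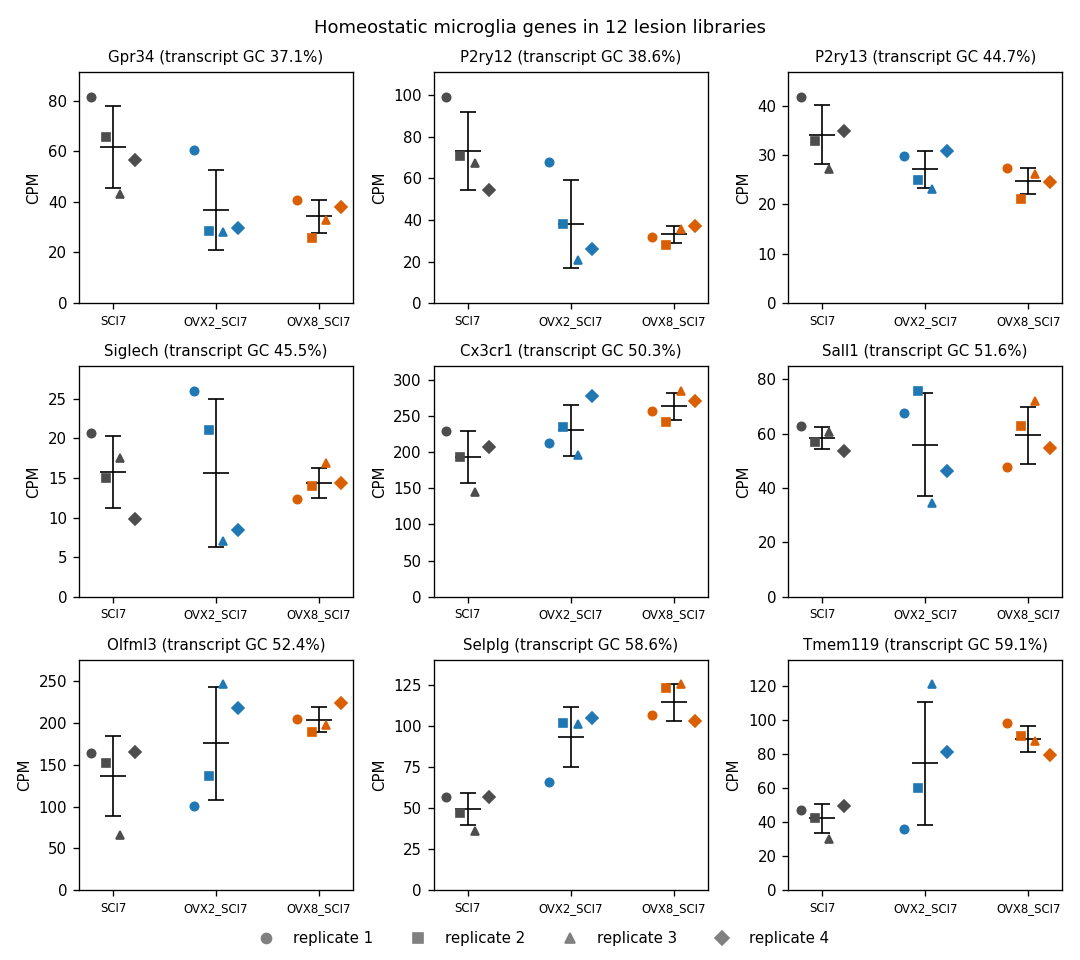
Level of each gene in CPM (vertical axis, from 0) in the 4 libraries of each group, ordered by transcript GC content. Symbols mark the replicate number, and the bar and whiskers give the mean and SD. Gpr34 and P2ry12 lie lower and Selplg and Tmem119 higher in every OVX8_SCI7 library than in any SCI7 library, and replicate 1 of OVX2_SCI7 lies near the SCI7 libraries for these 4 genes.

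The 5 calls depended on single libraries, as did those over all genes. Leaving out SCI7 replicate 1 or 2, or OVX8_SCI7 replicate 1 or 3, left 1 of the 9 genes called, beside 2343, 1642, 2536 and 1215 of the 4893 genes called in all. Leaving out OVX8_SCI7 replicate 2 left 0 of the 9 and 0 of all genes. Without SCI7 replicate 4 or OVX8_SCI7 replicate 4, 3 of the 9 were called, beside 4847 and 4644 of all genes, and without SCI7 replicate 3 or OVX2_SCI7 replicate 4, 4 of the 9, beside 2912 and 4378. The direction of the 5 genes stayed the same in the 12 such fits, with edgeR adjusted p of 0.0034 to 0.0812 for P2ry12, 0.0037 to 0.0686 for Tmem119, 0.0074 to 0.122 for Gpr34, 0.0368 to 0.143 for P2ry13 and 0.000786 to 0.0573 for Selplg.

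In mice ovariectomized 2 weeks before injury, none of the 9 genes passed against SCI7, and 0% of all tested genes did. At an unadjusted p under 0.05 the edgeR test gave 4 of the 9 genes, 2 higher and 2 lower, and 5787 of all genes. DESeq2 called 3 of the 9 (P2ry12, Tmem119 and Selplg) and 3683 of all genes, and limma-voom 1 (Selplg) and 893 of all genes. The largest differences were in the same genes as after 8 weeks: -0.94 for P2ry12 (SE 0.32, edgeR adjusted p = 0.0768), -0.75 for Gpr34 (SE 0.28, adjusted p = 0.0929), 0.82 for Tmem119 (SE 0.30, adjusted p = 0.0879) and 0.92 for Selplg (SE 0.19, adjusted p = 0.0520), all log2 fold changes. Both comparisons use the same SCI7 libraries, so these values are not independent of those after 8 weeks. The other 5 genes lay between -0.33 (P2ry13) and 0.36 (Olfml3).

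The OVX2_SCI7 group was itself divided for the genes at both ends. P2ry12 had 67.8 CPM in replicate 1, within the SCI7 range, and 38.0, 20.5 and 26.2 CPM in replicates 2 to 4. Gpr34 had 60.3 CPM in replicate 1 and 28.5, 28.0 and 29.7 CPM in the others, and Tmem119 had 35.9 CPM against 60.3, 121.2 and 81.3 CPM. Selplg, at 66.1, 101.7, 101.5 and 104.8 CPM, was the only one of the 9 genes whose OVX2_SCI7 range did not overlap that of SCI7, and 12.4% of all genes had ranges apart in that comparison (6.13% higher, 6.29% lower). Replicate 1 is also the library whose mitochondrial share and GC trend lay with SCI7, and its part in the result was measured by leaving it out. The edgeR test without it called 4 of the 9 genes, with log2 fold changes of -1.39 for P2ry12 (adjusted p = 0.0032), -1.11 for Gpr34 (0.0044), 1.03 for Tmem119 (0.0065) and 1.04 for Selplg (0.0021), and it called 6264 of all genes. Without replicate 2, 3 or 4 of OVX2_SCI7 instead, 0 of the 9 and 0 of all genes were called. Replicate 1 lay nearest SCI7 for these 4 genes, so the calls without it add no separate evidence. In the order of the replicate numbers, the OVX2_SCI7 libraries had 29.7, 24.9, 23.0 and 30.9 CPM of P2ry13, 213.1, 234.7, 195.8 and 278.0 CPM of Cx3cr1, and 101.3, 136.2, 246.4 and 218.5 CPM of Olfml3. These 3 genes overlapped the SCI7 ranges.

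The ovariectomy groups could not be told apart by these genes. Log2 differences of OVX8_SCI7 from OVX2_SCI7 ran from -0.20 (P2ry12) to 0.29 (Selplg), each with an edgeR adjusted p of 0.999. None of the 9 genes was called or had an unadjusted p under 0.05, where 393 of all genes did, and none had ranges apart, where 1.32% of all genes did. In the joint edgeR test of the 3 groups, P2ry12 (adjusted p = 0.0478) and Selplg (0.0285) passed, 2 of 9 genes against 14.8% of all genes, and Tmem119 had 0.0590.

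Direction followed base composition. By sign alone, the 4 genes with lower means in OVX8_SCI7 than in SCI7 had GC contents of 37.1 to 45.5%, and the 5 with higher means had 50.3 to 59.1%, so that the median of all protein-coding genes (50.2%) separated them. Among these, Sall1 (0.02, SE 0.22) and Siglech (-0.13, SE 0.38) lay near 0, and their signs changed in other settings. Direction went with GC content over all 15074 protein-coding genes too. The Spearman correlation between GC content and log2 fold change was 0.82 in OVX8_SCI7 against SCI7, 0.79 in OVX2_SCI7 against SCI7 and 0.45 in OVX8_SCI7 against OVX2_SCI7. In the first of these the median log2 fold change was -0.73 in the fifth of genes with the lowest GC content (up to 44.3%) and 0.71 in the fifth with the highest (from 56.0%).

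For OVX8_SCI7 against SCI7, the 9 genes were set beside protein-coding genes of their own composition in windows of 2 percentage points. For P2ry12 the 529 genes of 38 to 40% GC had a median of -0.94 and a middle 50% from -1.16 to -0.71, which takes in its value of -1.14. P2ry13 and Sall1 also lay within the middle 50% of their windows. Gpr34, although it fell, lay above its window's middle 50% of -1.32 to -0.88, and Tmem119 and Selplg lay above theirs of 0.56 to 0.91. Siglech, Cx3cr1 and Olfml3 were likewise above, which makes 6 of 9 above, 3 within and 0 below. For OVX2_SCI7 against SCI7 the counts were 3 above (Tmem119, Selplg and Siglech), 4 within and 2 below (P2ry12 and Sall1). The SEs of 0.16 to 0.38 are as wide as much of that range.

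**Figure D2:**
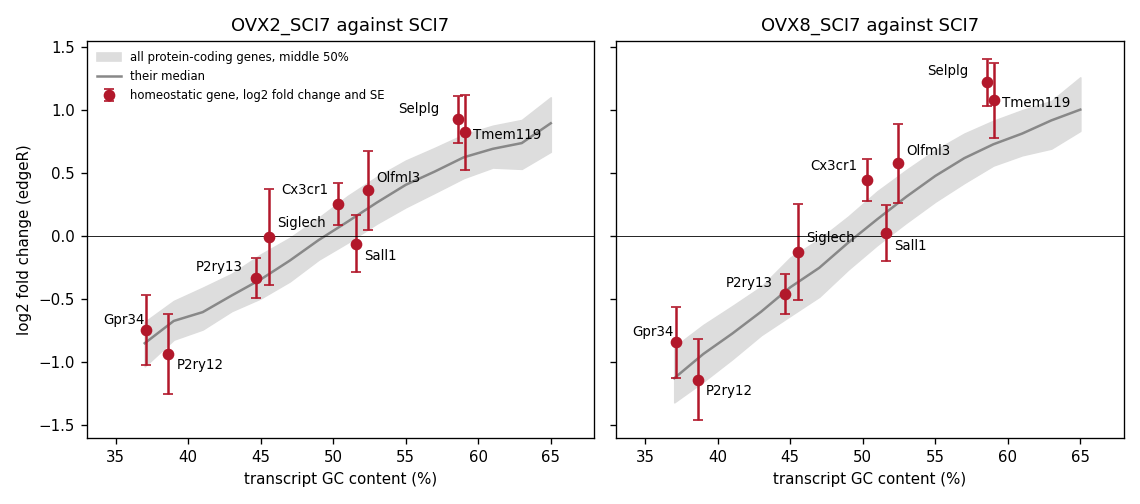
Log2 fold change from edgeR (vertical axis) against transcript GC content in percent (horizontal axis) for OVX2_SCI7 and OVX8_SCI7, each against SCI7. Red points with SE bars are the 9 genes, and the grey line and band are the median and middle 50% of all protein-coding genes in 2-point windows. The 9 points climb from Gpr34 and P2ry12 at the left to Selplg and Tmem119 at the right along the grey band.

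A second edgeR fit carried an offset that removed, library by library, the smooth trend with GC content and transcript length. With it, 0 of the 9 genes passed in OVX8_SCI7 against SCI7, as did 0% of all genes, and their log2 fold changes shrank to between -0.19 and 0.47. P2ry12 was then at -0.19 (SE 0.23, adjusted p = 0.717), Gpr34 turned to 0.23 (SE 0.15, adjusted p = 0.474) and P2ry13 was at -0.08 (SE 0.11, adjusted p = 0.756). Tmem119 was at 0.32 (SE 0.20, adjusted p = 0.466), Cx3cr1 at 0.36 (SE 0.15, adjusted p = 0.283) and Olfml3 at 0.31 (SE 0.30, adjusted p = 0.634). The largest remaining value was that of Selplg, 0.47 (SE 0.11, adjusted p = 0.105). Sall1 and Siglech changed sign, to -0.19 and 0.18. By sign, 6 of the 9 genes were then higher and 3 lower. At an unadjusted p under 0.05 this edgeR fit gave 2 of the 9 genes, Cx3cr1 and Selplg, and 2716 of all genes.

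**Figure D3:**
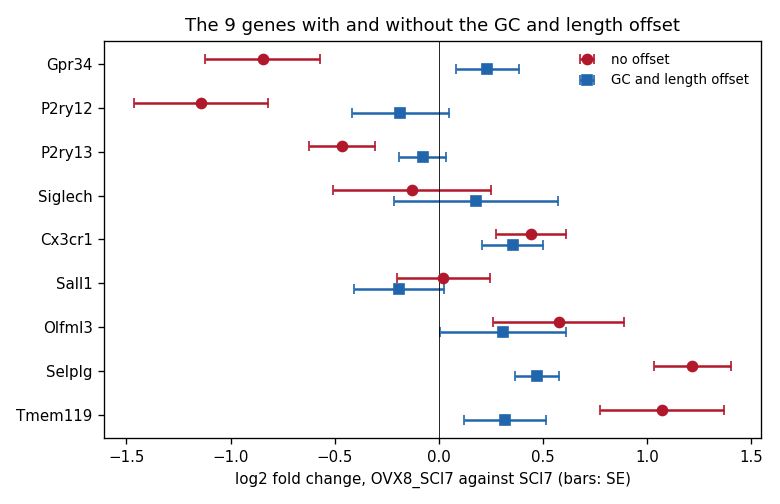
Log2 fold change of OVX8_SCI7 against SCI7 (horizontal axis) with SE bars for each gene, in order of GC content from Gpr34 at the top, without (red circles) and with (blue squares) the offset for GC content and transcript length. The red values run from -1.14 to 1.22 and the blue ones from -0.19 to 0.47.

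In OVX2_SCI7 against SCI7 with the same offset, log2 fold changes ran from -0.22 (P2ry12) to 0.34 (Selplg) and none of the 9 genes passed (smallest edgeR adjusted p = 0.267, with 0.0449% of all genes called). Since the GC trend differs between the groups nearly as the groups themselves do, a change that runs with GC content and the trend of the libraries cannot be told apart.

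Levels per transcript length, in TPM, give the rank of the 9 genes within a group. In SCI7 the order was Cx3cr1 (91.8 ± 14.1 TPM), P2ry12 (80.2 ± 7.90), Gpr34 (60.0 ± 11.6), Olfml3 (57.4 ± 19.5), Selplg (51.7 ± 10.5), Tmem119 (35.9 ± 7.08), P2ry13 (24.8 ± 2.92), Sall1 (19.5 ± 1.19) and Siglech (16.9 ± 2.83; SD, n = 4). Among neighbours in that order, ranges were apart only between P2ry12 and Gpr34 and between Tmem119 and P2ry13. In OVX8_SCI7 the order was Cx3cr1 (124 ± 16.9 TPM), Selplg (120.1 ± 17.2), Tmem119 (74.7 ± 3.85), Olfml3 (74.3 ± 14.5), P2ry12 (47.5 ± 9.69), Gpr34 (33.7 ± 6.14), Sall1 (19.5 ± 4.59), Siglech (18.8 ± 3.87) and P2ry13 (17.9 ± 1.99). There Selplg and Tmem119, Olfml3 and P2ry12, and Gpr34 and Sall1 were apart. P2ry12 thus stood below Cx3cr1 alone in SCI7 and below 4 other genes in OVX8_SCI7, and Selplg did the reverse. In OVX2_SCI7, where Cx3cr1 (103.5 ± 19.3 TPM) was again highest, only Gpr34 and P2ry13 had ranges apart.

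The 9 genes summed to 438 ± 58.9 TPM in SCI7, 454 ± 53.4 in OVX2_SCI7 and 530.2 ± 60.3 in OVX8_SCI7 (SD, n = 4), with overlapping ranges. The make-up of that sum differed more than its size. P2ry12 made up 18.6 ± 3.15% of the SCI7 sum, 10.4 ± 5.65% of that of OVX2_SCI7 and 8.89 ± 0.890% of that of OVX8_SCI7, and Gpr34 contributed 13.6 ± 1.34%, 7.67 ± 3.55% and 6.39 ± 1.25%. Selplg went the other way, with 11.7 ± 1.16%, 21.01 ± 3.54% and 22.7 ± 2.32%, as did Tmem119 with 8.17 ± 0.863%, 13.02 ± 6.18% and 14.2 ± 1.71%. The share of Cx3cr1 was 20.9 ± 0.756%, 22.7 ± 3.03% and 23.3 ± 0.734%, with every OVX8_SCI7 library above every SCI7 library.

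**Figure D4:**
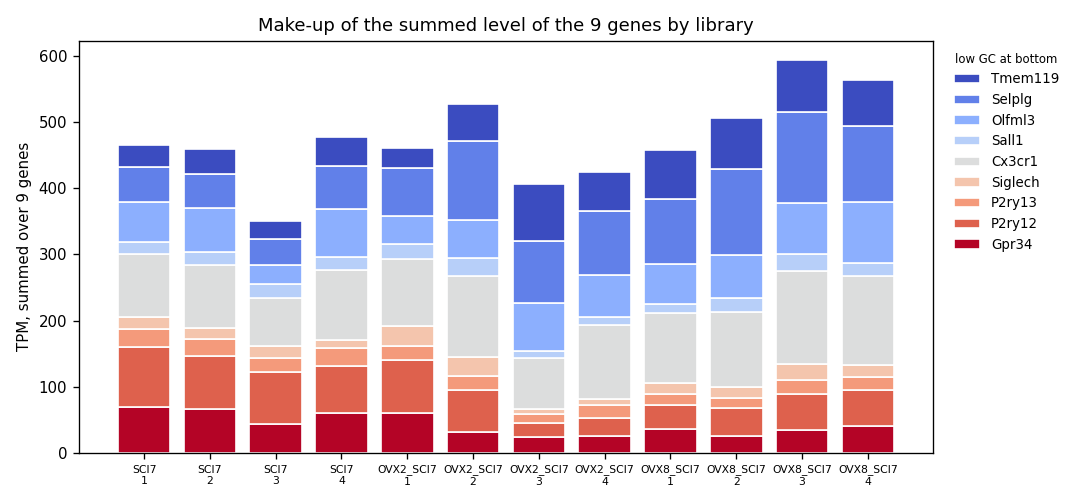
Sum of the 9 genes in TPM (vertical axis, from 0) in each of the 12 libraries, divided by gene and stacked in order of GC content with the lowest at the bottom. The red segments of Gpr34 and P2ry12 are wide in the SCI7 libraries and OVX2_SCI7 replicate 1 and narrow in the OVX8_SCI7 libraries, and the dark blue segments of Selplg and Tmem119 do the opposite.

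The ratio of P2ry12 to Tmem119, both used as markers of the same cells, shows the split within a library. As log2 of TPM + 1, it was 1.39, 1.08, 1.47 and 0.67 in SCI7 and -0.98, -0.87, -0.48 and -0.32 in OVX8_SCI7, so P2ry12 was the higher of the pair in every SCI7 library and the lower in every OVX8_SCI7 library. The means differed by -1.82 (exact 2-sided permutation test, p = 0.0286, the smallest that 4 against 4 allow, and 0.0857 after adjustment over the 3 comparisons). The pair was chosen with earlier results known and joins a gene called lower to one called higher, so this p restates that split and adds no separate evidence. In OVX2_SCI7 the log2 ratio was 1.39, 0.20, -1.97 and -1.06, which spans both other groups (difference from SCI7 -1.51, exact permutation p = 0.114; OVX8_SCI7 differed from OVX2_SCI7 by -0.30, exact permutation p = 0.714).

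**Figure D5:**
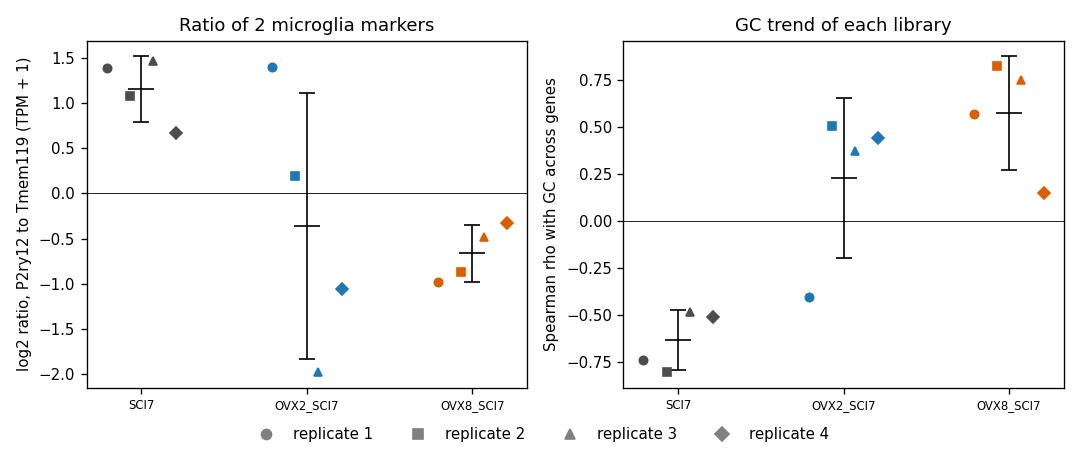
Left, log2 ratio of P2ry12 to Tmem119 from TPM + 1 in each library (vertical axis), and right, Spearman correlation of each library's deviations with transcript GC content across genes. Symbols mark the replicate number, and bars and whiskers give the mean and SD of 4 libraries. SCI7 libraries and OVX2_SCI7 replicate 1 have a positive ratio and a negative correlation, and OVX8_SCI7 libraries have a negative ratio and a positive correlation. In OVX2_SCI7 replicate 2 both are positive, at 0.20 and 0.51.

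The deposited TPM did not keep a constant ratio to CPM. The deposited TPM of P2ry12 was 0.915 to 1.69 times its CPM depending on the library, that of Siglech 0.881 to 1.44 times and that of Olfml3 0.286 to 0.444 times, against 0.708 to 0.927 times for Tmem119. On log2(TPM + 1) with limma, P2ry12 was at -0.76 in OVX8_SCI7 against SCI7 and did not pass (adjusted p = 0.133), and Olfml3 was at 0.089 in OVX2_SCI7 against SCI7 (adjusted p = 0.859). In OVX8_SCI7 against SCI7, Tmem119 (1.06, limma adjusted p = 0.0263) and Selplg (1.21, limma adjusted p = 0.0195) passed, and Gpr34 (-0.81, 0.0561) and P2ry13 (-0.44, 0.0826) did not.

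Likeness between genes was measured as the root mean square difference of log2 CPM, centred on each gene's mean, over the 12 libraries, among 12467 other named genes of at least 5 CPM. Tspan12 (0.14) and Nadk2 (0.15) were most like P2ry12, and Nucb1 and Pold4 (0.11 each) most like Tmem119. Hsd17b12 and Ugp2 (0.18 each) were most like Gpr34, Pno1 (0.087) and Ube2l3 (0.11) most like P2ry13, and Plxdc1 (0.14) and Sphk2 (0.16) most like Selplg. For Cx3cr1 they were Ptpra (0.12) and Gltp (0.13), for Olfml3 Shisa5 (0.11) and Cryl1 (0.12), for Sall1 Arhgap35 and Cdh13 (0.10 each) and for Siglech Lrrc49 (0.18) and Scg3 (0.19). Within the set itself, the nearest gene was Selplg for Tmem119 (0.28), Tmem119 for Olfml3 (0.29), Gpr34 for P2ry12 (0.30), Siglech for Sall1 (0.31), Gpr34 for P2ry13 (0.33) and Olfml3 for Cx3cr1 (0.37). For Sall1, P2ry13 and Cx3cr1 this distance exceeded the gene's own root mean square deviation from its mean (0.30, 0.26 and 0.27). A gene of constant level would lie nearer to them, so these values show no likeness within the set. The smaller distances to outside genes come from a far larger number of candidates.

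Several of the 9 genes overlap or adjoin another gene, and whether strand was used in counting is not given in the sources used here, so reads of such partners cannot be told apart. In the RefSeq annotation P2ry12 and P2ry13 are neighbours, and both overlap Med12l, which had 31.8 ± 12.8 CPM in SCI7, 25.4 ± 14.0 in OVX2_SCI7 and 20.05 ± 4.13 in OVX8_SCI7 (SD, n = 4) and did not pass (log2 fold change of OVX8_SCI7 against SCI7 -0.67, SE 0.39, edgeR adjusted p = 0.202). Gpr34 overlaps Cask, which fell from 74.3 ± 5.52 to 53.7 ± 5.56 CPM in that comparison (-0.47, SE 0.14, edgeR adjusted p = 0.0323). Tmem119 and Selplg lie near each other with only 2 predicted genes between them.

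Ligands and enzymes that act on these receptors were measured too. Of 6 tested, 0 passed in OVX8_SCI7 against SCI7, where 27.5% of all tested genes did. Their median log2 fold change was -0.16. The fractalkine gene Cx3cl1 had 90.9 ± 23.3 CPM in SCI7 and 118.6 ± 19.2 in OVX8_SCI7 (SD, n = 4), and the ATP-degrading enzyme Entpd1 (CD39) had 51.7 ± 13.8 and 59.8 ± 11.1 CPM. Nt5e (CD73), which makes adenosine from AMP, had a log2 fold change of -0.25 (SE 0.33, edgeR adjusted p = 0.580). The endothelial selectins that bind Selplg were low in both groups, with Selp at 2.47 ± 2.40 and 2.17 ± 0.691 CPM and Sele at 0.562 ± 0.377 and 0.524 ± 0.182 CPM.

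In the survival and TGF-beta list of genes on which microglia depend, 2 of 9 rose and 1 fell in OVX8_SCI7 against SCI7 (median log2 fold change 0.54), a share near the 27.5% called over all genes. Csf1r, the receptor that keeps microglia alive, had 346 ± 67.9 CPM in SCI7 and 560.4 ± 53.1 in OVX8_SCI7 and rose by 0.70 on the log2 scale (SE 0.18, edgeR adjusted p = 0.0205), and Itgb8, an integrin subunit that activates TGF-beta, fell from 273 ± 58.4 to 109.9 ± 12.9 CPM (-1.31, SE 0.36, adjusted p = 0.0223). Their GC contents were 54.5% and 40.4%. Of 9 microglial transcription factors 1 rose and 3 fell, beside 11.9% of all tested genes called higher and 15.6% called lower. Among those that fell were Mef2a (-0.75, SE 0.16, edgeR adjusted p = 0.0143) and Mef2c (-0.55, SE 0.18, adjusted p = 0.0390), with 42.0% and 40.8% GC.

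Of 16 tested genes in a further list of homeostatic microglia markers, 4 rose and 0 fell in OVX8_SCI7 against SCI7 (median 0.24). Over all tested genes 27.5% were called, 11.9% as higher and 15.6% as lower, so these calls were one-sided where those over all genes were not. Slco2b1, a transporter, rose by 0.62 on the log2 scale (69.8 ± 12.5 to 107.2 ± 11.03 CPM, SE of the change 0.16, edgeR adjusted p = 0.0191) and Vsir, an immune checkpoint receptor, from 96.4 ± 28.5 to 197.4 ± 8.53 CPM (1.04, SE 0.31, adjusted p = 0.0307). With the GC and length offset none of these 3 lists had a call, where 0% of all tested genes passed in OVX8_SCI7 against SCI7. Without it, none had a call in OVX2_SCI7 against SCI7 or between the ovariectomy groups. In both of those comparisons 0% of all tested genes passed.

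Calls in the lists that microglia share with other myeloid cells are set beside 11.9% of all tested genes called higher and 15.6% called lower. Of 11 general myeloid genes 2 rose in OVX8_SCI7 against SCI7 and 0 fell (median 0.92), and their summed level was 1413 to 5830 TPM in SCI7, 2751 to 11047 in OVX2_SCI7 and 8306 to 9346 in OVX8_SCI7. The 2 were the complement genes C1qa (1.45, SE 0.49, edgeR adjusted p = 0.0459) and C1qb (1.46, SE 0.48, adjusted p = 0.0419). Of 12 genes of phagocytic lesion microglia and macrophages 2 rose and 0 fell (median 1.04), Apoe, a lipid carrier (1.77, SE 0.52, edgeR adjusted p = 0.0291), and Trem2, a lipid-sensing receptor (1.66, SE 0.57, adjusted p = 0.0499), and the list summed to 6312 to 30656 TPM, 9925 to 64162 TPM and 41946 to 50304 TPM. All these 4 genes have 57.4 to 59.5% GC. With the offset none of either list was called, but 0% of all tested genes were called in that fit. The list medians with the offset were 0.65 and 0.93, against 0.23 for the 9 homeostatic genes and -0.06 for all genes tested.

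Some of the 9 genes are carried by other cell types too, and markers of those cells were measured. Calls are for OVX8_SCI7 against SCI7, where 11.9% of all tested genes were called higher and 15.6% lower. For Siglech, 5 markers of plasmacytoid dendritic cells summed to 0.55 to 2.23 TPM over the 12 libraries, with Cd209d at 0 counts in OVX2_SCI7, and the 1 tested, Ccr9, did not pass (-0.35, edgeR adjusted p = 0.541). For Selplg and Cx3cr1, 0 of 7 genes of infiltrating monocytes passed, with sums of 103.0 to 250.0 TPM in SCI7, 83.7 to 274 in OVX2_SCI7 and 132 to 228 in OVX8_SCI7. Chil3 (18.3 ± 6.74 and 9.59 ± 1.97 CPM in SCI7 and OVX8_SCI7) and Ly6c2 (3.59 ± 0.530 and 2.78 ± 0.752 CPM) had the smallest p there. Neutrophil markers (0 of 6, S100a8 and Ngp first) and T and NK cell markers (1 of 4) summed to 169 to 401 TPM and 6.33 to 15.4 TPM over all libraries. Cd8a, the 1 called, was below the floor of 3 counts in SCI7 on average, at 0.0527 CPM, and at 0.510 CPM in OVX8_SCI7, and Trac was at 2.44 and 1.48 CPM. B cell markers summed to 1.09 to 1.99 TPM in SCI7 and 2.89 to 4.46 TPM in OVX8_SCI7, and the 1 tested, Cd79b, rose (1.299, SE 0.35, edgeR adjusted p = 0.0217). Of 7 border macrophage genes Lyve1 fell (-0.78, SE 0.23, edgeR adjusted p = 0.0293), and Ms4a7 was at 1.09 (adjusted p = 0.261).

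Among the remaining cell types, 1 of 6 astrocyte genes fell (Gja1, -0.63, SE 0.17, edgeR adjusted p = 0.0219, with Aqp4 at -1.04 and adjusted p = 0.0530) and 2 of 5 pericyte genes rose (Vtn, 0.66, SE 0.21, adjusted p = 0.0376, and Kcnj8, 0.54, SE 0.18, adjusted p = 0.0427). Over all tested genes, 11.9% were called higher and 15.6% lower in OVX8_SCI7 against SCI7. With the offset neither list had a call, where 0% of all tested genes passed. The list medians went from -0.57 to -0.30 for astrocytes and from 0.54 to 0.09 for pericytes. Of oligodendrocyte, neuronal, endothelial, fibroblast and sensory neuron genes, 0 of 6 in each list passed. The named genes of the neuronal and endothelial lists lay on both sides, and none passed. They were Slc17a6 at -1.01 (42.9% GC) and Slc32a1 at 0.76 (61.9%), and Tek at -0.44 (47.1%) and Cldn5 at 0.67 (60.5%). Other named genes of low GC content were higher, such as Ms4a7 (42.6%) at 1.09 and Entpd1 (44.7%) at 0.21. So was Cd8a (47.2%), below the floor in SCI7, at 3.10. In the fibroblast and sensory neuron lists Col1a1 was at 1.51 and Col3a1 at 1.31, and Prph was at 0.74 and Scn11a at -1.03. The part that these cell types have in the values of the 9 genes was not tested.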

How the data were processed

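The data are bulk RNA sequencing libraries of injured spinal cord, 4 in each of 3 groups, grouped by the sample labels. Per the submitters' processing notes, the tools were fastp 0.23.4, HISAT2 2.2.1, RSEM 1.3.3, limma, edgeR and DESeq2 1.42.0, with GRCm39 as the build. As files, the authors deposited expected counts (estimated counts, which were rounded here) and TPM per gene, and 6 columns of group means in these tables were not used, nor was the FPKM table. Strand, kit and annotation release are not given in the sources used here.

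Counts were analysed with edgeR 4.0.16 in R 4.3.3: filterByExpr by group, TMM scaling, 1 robust quasi-likelihood fit of all 12 libraries with group as the only term, and Benjamini-Hochberg adjustment over the 17820 genes tested, with a threshold of 0.05 (common biological coefficient of variation 0.312). CPM used TMM-scaled library sizes. The second fit used an offset from a natural spline with 5 df, which models how far a library lies from the mean log2 CPM as a function of GC content and log length, fitted on genes with a mean of 5 CPM or more. Both properties are those of the longest protein-coding transcript in GENCODE M21, an older build (GRCm38) than the authors', and were found for 17448 tested genes and all 9 described. TPM was analysed as log2(TPM + 1) with limma 3.58.1 and exact permutation tests. Other settings were DESeq2 scaling and test, limma-voom, no filter and a stricter filter, 8 libraries per comparison, a replicate block and leaving out each library. The code was tested on simulated data.

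The 9 genes, the lists and the rule for named genes were chosen with earlier results of these data known. Named are the 9 genes, the ligands and enzymes, the 2 genes of each other list with the smallest p in OVX8_SCI7 against SCI7, and the 2 most like each of the 9. Single genes that this rule names are in a few cases not reported here. Replicate numbers showed no sign of pairing the samples. Same-numbered libraries correlated at -0.60 to 0.47 in their deviations, and other pairs across groups at -0.58 to 0.57. The labels call the replicates biological without saying whether each is 1 animal, so p-values measure the spread between these libraries. Libraries of the same group differed by more than sampling noise in every pair (chi-square per gene 13.3 to 398). The 525 genes without a symbol stayed in the tests.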

Additional observations from a re-analysis of the deposited data

Results flagged for a closer look

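In 33 groups of 4 values (the CPM of the 9 genes in each group, the mitochondrial share and the GC trend), 5 had a library whose gap to the nearest other exceeded Dixon's critical value. Chance gives about 1 in 20 groups. Of these 5, 4 were OVX2_SCI7 replicate 1: Gpr34 at 60.3 CPM, Selplg at 66.1 CPM, a mitochondrial share of 8.33% of counts and a GC trend of -0.41, each on the side of the SCI7 libraries. The fifth was SCI7 replicate 3 for Olfml3, at 65.9 CPM. Leaving out SCI7 replicate 3 gave 4 calls among the 9 genes in OVX8_SCI7 against SCI7, beside 2912 of all genes. Leaving out OVX2_SCI7 replicate 1 gave 4 in OVX2_SCI7 against SCI7, beside 6264 of all genes.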

How the results depend on the processing

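In OVX2_SCI7 against SCI7, where 0 of the 9 genes and 0 of all genes passed, other settings called 14 (no filter), 1144 (stricter filter), 3683 (DESeq2), 893 (limma-voom), 16 (limma on log2(TPM + 1)), 2 (8 libraries) and 8 (GC and length offset) of all genes. Of the 9 genes they called 1 (stricter filter), 3 (DESeq2) and 1 (limma-voom). In OVX8_SCI7 against SCI7, where 5 of the 9 genes and 4893 of all genes passed, the counts were 3 and 3257 with no filter, 2 and 3000 with limma on log2(TPM + 1), 0 and 0 with the offset, and, with 8 libraries, 7426 of all genes. Between the ovariectomy groups DESeq2 called 6 genes. The cause of these differences was not tested.

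With a replicate block 3 of the 9 genes and 3390 of all genes passed in OVX8_SCI7 against SCI7, and with the block and the offset 0 and 1. None of the 12 libraries was closest to its own number in both other groups, a check that cannot exclude pairing. The ratio of P2ry12 to Tmem119 (-1.82) had an exact permutation p of 0.125 with the block, the smallest that this blocked test allows.

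Leaving out OVX2_SCI7 replicates 1 and 2 together was chosen after seeing the data. It gave 6 of the 9 genes and 7141 of all genes in OVX2_SCI7 against SCI7 (2 and 1648 with the offset) and 7720 of all genes in OVX8_SCI7 against SCI7 (1 and 780 with the offset, the 1 being Selplg), and turned the ratio between the ovariectomy groups to 0.85. Leaving out single libraries gave 0 to 6264, 0 to 6710 and 0 to 1 calls over all genes in the 3 comparisons, in the order OVX2_SCI7 and OVX8_SCI7 against SCI7 and then each other, and 0 to 4, 0 to 5 and 0 to 0 of the 9 genes. The ratio ranged from -2.10 to -0.97, -1.98 to -1.71 (exact permutation p = 0.0571, the smallest that 3 against 4 allow) and -0.84 to 0.28.

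Where a sign changed, the changed value did not pass. In OVX2_SCI7 against SCI7, Siglech (-0.01) was at 0.00072 with no filter, 0.020 with 8 libraries, 0.28 with the offset, 0.20 with block and offset and -0.38 to 0.23 without single libraries. Sall1 was at -0.23 to 0.11 without single libraries. With the offset and with block and offset, Gpr34 was at 0.050 and 0.054 and P2ry13 at 0.018 and 0.020. In OVX8_SCI7 against SCI7, Sall1 was at -0.016 (stricter filter), -0.027 (limma on TPM), -0.19 (offset), -0.18 (block and offset), -0.20 (offset, 2 libraries left out) and -0.088 to 0.12 without single libraries. Siglech was at 0.14 (limma on TPM), 0.18, 0.24 and 0.17 under the same 3 offset settings and -0.30 to 0.025 without single libraries, and Gpr34 at 0.23, 0.25 and 0.23. Between the ovariectomy groups, 30 of 216 refitted values of the 9 genes changed sign and 0 passed (smallest adjusted p = 0.587).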
